A study of Mus musculus with 4 samples.

Results

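The transcription factors that drive epithelial-mesenchymal transition were followed across 2 diets in sorted mammary basal cells: Zeb1, Zeb2, Snai1, Snai2, Twist1, Twist2, Prrx1, Foxc2 and Tcf4, with the epithelial splicing factor Esrp2, which marks the opposite state. Members were every probe set that the platform annotation assigns to exactly 1 gene with one of these 10 symbols. This gave 29 probe sets of 45037 that were not controls, and 10 genes of 18193. Both groups were basal cells freshly sorted from the mammary gland of mice of the strain B66SJL/HEV/J (mixed background) with the genotype MMTV-Wnt1-Transgenic (Wnt1-Tg). The tested mice ate a soy protein isolate (SPI) diet and the others a control casein (CAS) diet, with 2 Affymetrix arrays per diet. All 4 arrays therefore carry the transgene, in which a mouse mammary tumour virus promoter drives the Wnt1 ligand in mammary epithelium. The labels describe the sorted population as stem cells, myoepithelial cells and myoepithelial progenitors. They give neither the age of the mice nor the number of animals behind an array. Whether both arrays of 1 diet hold RNA of different mice is open, and p-values therefore reflect the spread among these 4 samples alone, part or all of which may be technical. The comparison asks how the soy diet changed the transcripts of these cells.

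In epithelial-mesenchymal transition, cells loosen their junctions and take on a migratory, matrix-producing state. ZEB and Snail proteins are zinc finger repressors that bind E-box sequences in promoters of junction genes such as that of E-cadherin, and Twist and E2-2 (the product of Tcf4) are basic helix-loop-helix factors that bind E-boxes as dimers. In the mammary gland, Snai2 is a known regulator of the basal and stem cell state, and transition factors are also transcribed in fibroblasts. Esrp2 and its paralogue Esrp1 direct the epithelial splice forms of Fgfr2, Cd44 and Ctnnd1, and are themselves repressed by ZEB and Snail proteins.

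The DNA word that ZEB and Snail proteins recognise is the hexamer CACCTG, which reads CAGGTG on the other strand, and it was looked for in the 250 bases before the start site. Promoters were those of the RefSeq table of build GRCm38.p6, taking the start farthest upstream where a gene had several. The table matched 5 of the 10 members (Prrx1, Snai1, Twist1, Twist2 and Zeb2). Of the members, Snai1 is shown because it carries the word. Zeb2, Twist1 and Twist2 are shown because they differed most between the diets among those matched. They lack the word, as does Prrx1, which is not shown. The windows of Rab25, Krt18 and Crb3 are shown because they are epithelial targets that carry the word. Capitals mark the hexamer on either strand, and each sequence runs 5′ to 3′ on the strand of its gene.
Snai1, chr2:167537945-167538194, plus strand: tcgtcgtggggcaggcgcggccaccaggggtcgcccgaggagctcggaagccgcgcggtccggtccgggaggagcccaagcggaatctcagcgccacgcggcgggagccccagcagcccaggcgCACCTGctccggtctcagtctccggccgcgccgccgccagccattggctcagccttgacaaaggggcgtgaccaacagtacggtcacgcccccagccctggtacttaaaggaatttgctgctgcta
Zeb2, chr2:45117443-45117692, minus strand: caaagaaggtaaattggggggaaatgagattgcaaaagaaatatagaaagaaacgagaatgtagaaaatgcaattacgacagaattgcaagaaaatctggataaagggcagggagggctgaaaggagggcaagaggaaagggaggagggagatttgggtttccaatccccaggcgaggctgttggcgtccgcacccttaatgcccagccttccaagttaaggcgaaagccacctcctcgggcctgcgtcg
Twist1, chr12:33957421-33957670, plus strand: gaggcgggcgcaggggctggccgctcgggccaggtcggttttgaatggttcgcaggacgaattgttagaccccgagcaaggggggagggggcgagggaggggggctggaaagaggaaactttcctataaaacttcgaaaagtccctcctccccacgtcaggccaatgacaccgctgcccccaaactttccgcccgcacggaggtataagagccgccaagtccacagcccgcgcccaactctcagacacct
Twist2, chr1:91801211-91801460, plus strand: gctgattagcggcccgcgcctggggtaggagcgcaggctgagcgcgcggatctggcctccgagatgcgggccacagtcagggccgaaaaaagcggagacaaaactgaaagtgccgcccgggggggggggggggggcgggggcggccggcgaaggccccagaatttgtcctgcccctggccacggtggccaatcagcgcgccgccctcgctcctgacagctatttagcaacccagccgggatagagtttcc
Rab25, chr3:88548280-88548529, minus strand: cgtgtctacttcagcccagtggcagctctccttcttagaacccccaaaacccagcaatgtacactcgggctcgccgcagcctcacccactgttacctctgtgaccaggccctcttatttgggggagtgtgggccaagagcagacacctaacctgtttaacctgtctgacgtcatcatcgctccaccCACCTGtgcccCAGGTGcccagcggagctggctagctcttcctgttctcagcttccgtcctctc
Krt18, chr15:102027966-102028215, plus strand: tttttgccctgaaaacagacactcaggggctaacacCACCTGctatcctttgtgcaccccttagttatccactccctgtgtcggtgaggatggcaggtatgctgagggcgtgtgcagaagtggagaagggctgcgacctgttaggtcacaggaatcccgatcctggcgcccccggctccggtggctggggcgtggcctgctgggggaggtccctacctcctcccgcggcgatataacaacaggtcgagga
Crb3, chr17:57061951-57062200, plus strand: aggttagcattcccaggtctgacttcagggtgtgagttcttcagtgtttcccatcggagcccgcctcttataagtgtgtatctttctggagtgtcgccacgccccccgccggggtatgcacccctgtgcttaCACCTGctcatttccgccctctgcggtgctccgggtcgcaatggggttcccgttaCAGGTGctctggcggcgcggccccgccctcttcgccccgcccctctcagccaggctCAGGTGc
Among the 5 members matched, the hexamer was present in 1, Snai1, where its first base lies at position -126 from the start. The wider E-box pattern CANNTG, which includes the hexamer, was also found in that 1 member promoter only. Over all 27025 genes of the table, 17.1% had the hexamer in this window and 66.1% had CANNTG.

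Values are log2 expression values by RMA. As deposited they are centred on the median of the 4 arrays for each probe set, a step the labels do not mention. They hold no level of a gene. They show only how the arrays differ, and the 2 middle arrays of a probe set are mirror images of each other. Differences are SPI minus CAS from limma, fitted to all 45037 probe sets with Benjamini-Hochberg adjustment and a threshold of 0.05. Of all probe sets 1.50% passed (1.25% lower and 0.249% higher in SPI). A coarse level class could be read from the digits of the values, and 22 of the 29 member probe sets fell at level 4 or above on the log2 scale. That class does not establish expression, since 105 of 114 ribosomal protein probe sets reached it but so did 9 of 44 olfactory receptor probe sets. The basal markers Krt5, Krt14, Acta2 and Trp63 each reached the class of 8 to 16, as the label of the sort asks. The luminal genes Krt8, Krt18 and Epcam and the leukocyte gene Ptprc also did, while Col1a1 and Pdgfra of fibroblasts reached 4 to 8 and Pecam1 and Adipoq 2 to 4. The class follows the lowest of the 4 arrays, so it can depend on the diet. Hybridization controls, which are transcripts added in fixed amounts, were lower on the SPI arrays by a mean log2 difference of -0.16. Centring the arrays on them moved the median of all probe sets from 0.023 to 0.18. It also turned the balance of calls in limma, with 1557 probe sets higher and 704 lower in SPI, against 112 higher and 564 lower as deposited.

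Of the 29 member probe sets, 3 fell in SPI, 0 rose and 26 did not pass the test. Of all probe sets 1.25% fell and 0.249% rose. The 3 that fell were probe sets of the ZEB repressors, 2 of Zeb2 and 1 of Zeb1. An unadjusted limma p under 0.05 was reached by 13 of the 29, and by 8006 of all 45037 probe sets. The median log2 difference of the 29 was -0.12, against 0.023 over all probe sets. The diets did not overlap in 21 of the 29, where 48.4% of all probe sets did not. Both SPI arrays lay below both CAS arrays in 17 of them (20.5% of all probe sets) and above in 4 (27.9%). Probe sets of 1 gene share their target, so the 29 are not independent of each other.

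**Figure D1:**
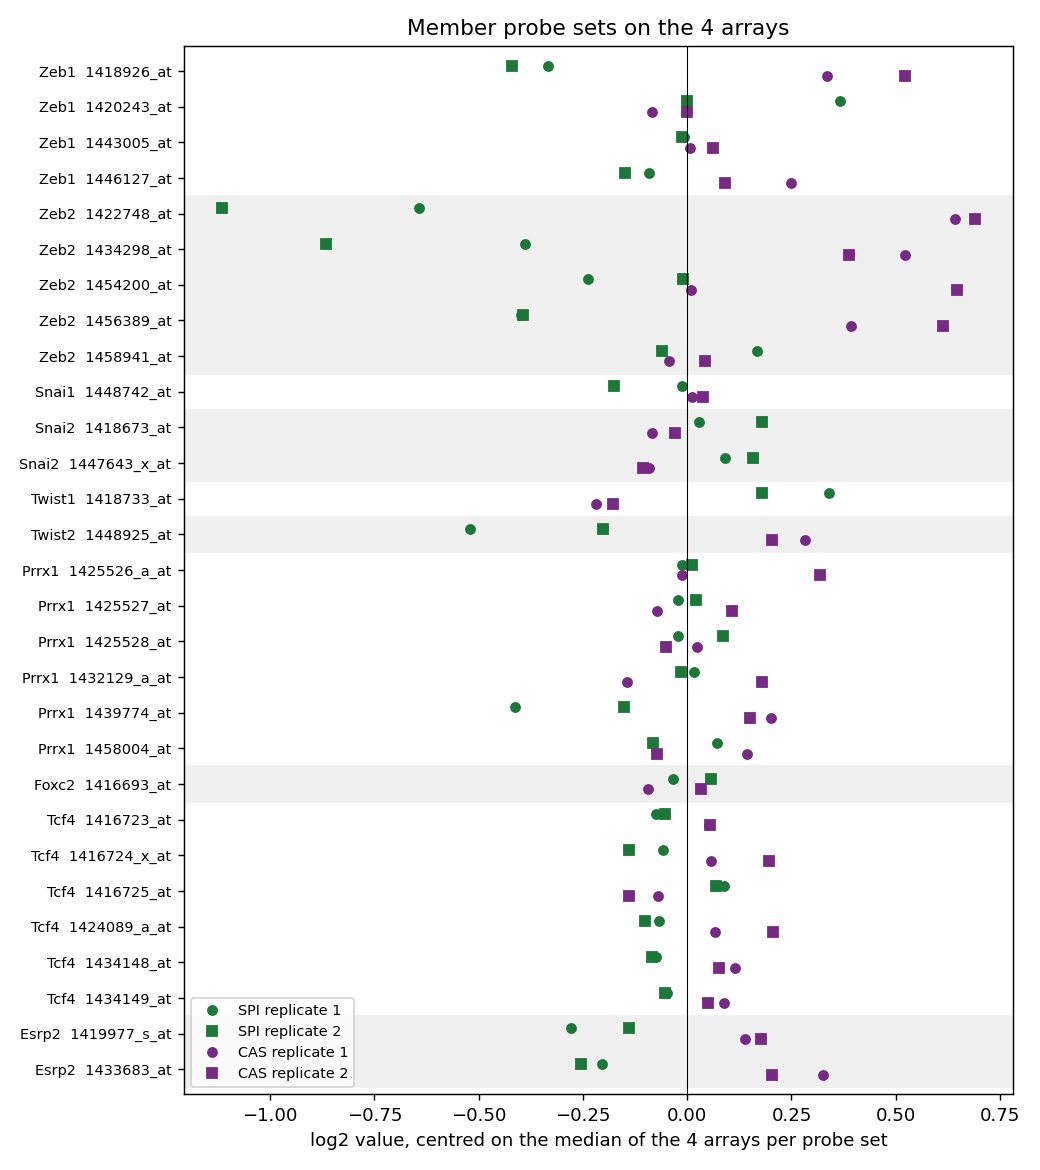
Centred log2 values of the 29 member probe sets (rows, named by gene and probe set) on the 2 SPI arrays (green) and the 2 CAS arrays (purple), circles for replicate 1 and squares for replicate 2. The diets stand farthest apart in Zeb2 1422748_at, with SPI at -0.64 and -1.12 and CAS at 0.64 and 0.69, while most Prrx1 probe sets overlap.

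Zeb2, a zinc finger repressor of E-cadherin, showed the largest difference of the members. Its probe set 1422748_at read -0.64 and -1.12 in the SPI arrays, against 0.64 and 0.69 in the CAS arrays. The SPI mean was thus 2.92-fold below the CAS mean, with a 95% interval of 2.18 to 3.91 (2 arrays each, adjusted p = 0.0271 in limma). Both SPI arrays lay well below both CAS arrays, and the SPI arrays were themselves farther apart than the CAS arrays. Probe set 1456389_at read -0.40 and -0.39 in SPI, against 0.39 and 0.61 in CAS, and was 1.86-fold lower (1.56 to 2.22, limma adjusted p = 0.0294). Probe set 1434298_at, at -0.39 and -0.87 in SPI against 0.52 and 0.39 in CAS, had a log2 difference of -1.08 but missed the threshold (limma adjusted p = 0.0652). With arrays centred on the hybridization controls it was smaller, at -0.93, and passed (limma adjusted p = 0.0144). In that fit 2261 probe sets passed, against 676 as deposited. The other Zeb2 probe sets did not pass. For 1454200_at the values were -0.24 and -0.0098 in SPI, against 0.0098 and 0.65 in CAS, so that CAS replicate 2 alone stood apart. For 1458941_at they were 0.17 and -0.060 in SPI, against -0.043 and 0.043 in CAS, and the diets overlapped. By level, 1422748_at and 1458941_at lay in the class of 4 to 8. The called 1456389_at lay in the lower class of 2 to 4, as did 1434298_at and 1454200_at. As the mean of its 5 probe sets, Zeb2 lay 1.72-fold lower on the SPI arrays (1.45 to 2.05), with an adjusted p of 0.0189 in limma over 18193 genes.

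For Zeb1, the close relative of Zeb2, the 4 probe sets disagreed. Probe set 1418926_at read -0.33 and -0.42 in SPI, against 0.33 and 0.52 in CAS. It was 1.75-fold lower (1.47 to 2.07, limma adjusted p = 0.0348), with both SPI arrays below both CAS arrays. Probe set 1446127_at, at -0.091 and -0.15 in SPI against 0.25 and 0.091 in CAS, was lower without overlap but did not pass (limma adjusted p = 0.203). Probe set 1443005_at differed by only -0.044 on the log2 scale (95% interval -0.23 to 0.15), and turned to 0.11 with arrays centred on the hybridization controls. Probe set 1420243_at read 0.37 and 0 in SPI, against -0.084 and 0 in CAS. That difference of 0.22 came from SPI replicate 1, the lone array above its neighbours. The mean of the 4 probe sets, at -0.23 on the log2 scale, did not pass (limma adjusted p = 0.173). Averaged over the probe sets at level 4 or above it was -0.42 and passed (limma adjusted p = 0.0273), and over those of the highest class it was -0.044, so the gene value depends on which probe sets are counted.

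The 3 calls rest on all 4 arrays. Without SPI replicate 1, SPI replicate 2, CAS replicate 1 or CAS replicate 2, none of the 29 probe sets passed in limma, and none of the 45037 did either. Over those 4 fits the log2 difference of Zeb2 1422748_at lay between -1.78 and -1.31 (adjusted p 0.122 to 0.308). That of Zeb2 1456389_at lay between -1.01 and -0.79 (adjusted p 0.238 to 0.297), and that of Zeb1 1418926_at between -0.90 and -0.71 (adjusted p 0.235 to 0.322).

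**Figure D2:**
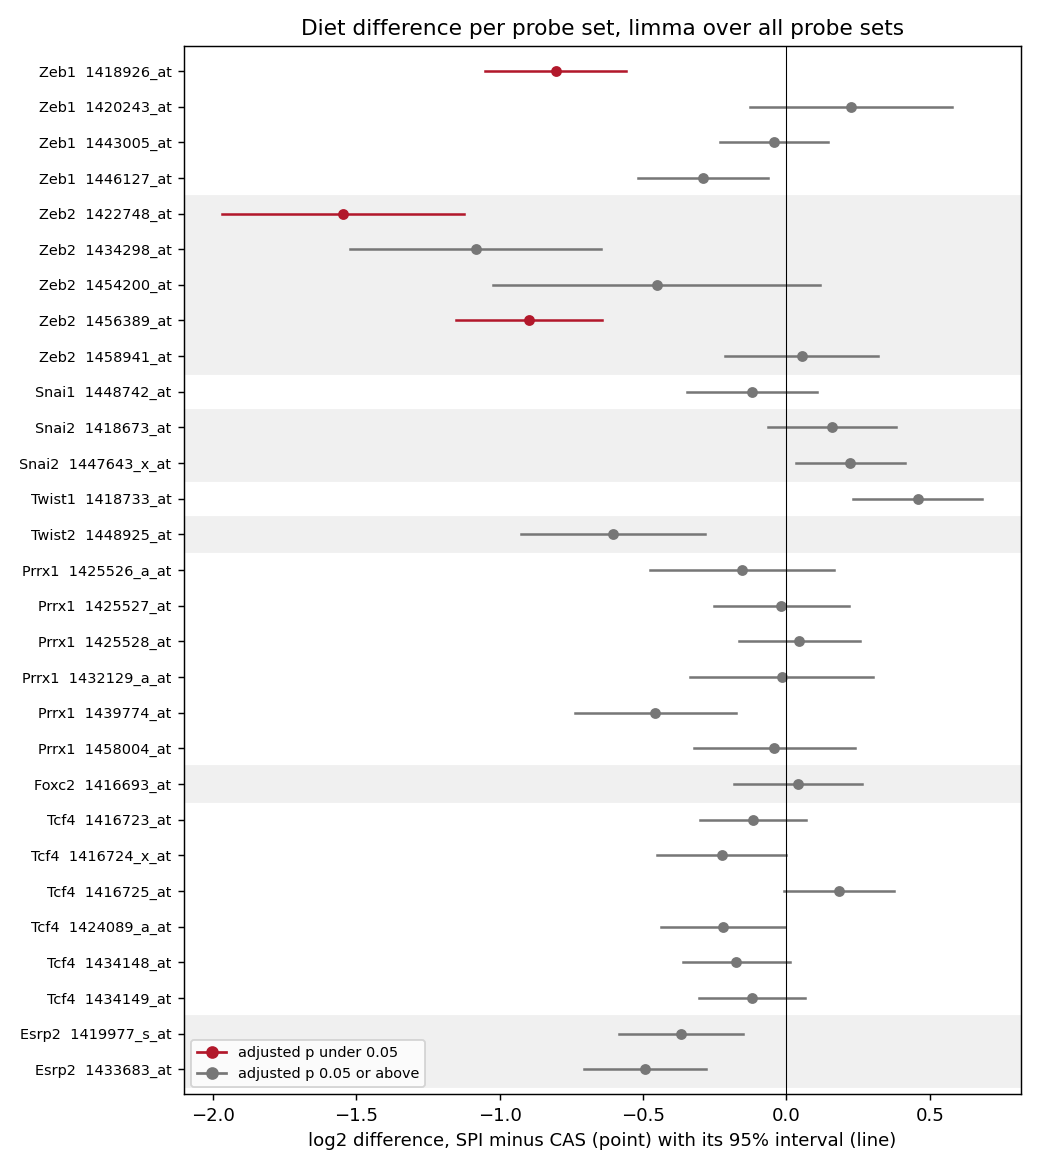
Log2 difference (SPI minus CAS, point) with its 95% interval from limma (line) for each of the 29 member probe sets, red where the adjusted p over all probe sets is under 0.05. The 3 red probe sets are Zeb1 1418926_at and Zeb2 1422748_at and 1456389_at, and Twist1, at 0.46, lies farthest to the right.

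No probe set of the Snail genes passed. Snai1, the repressor first described as a driver of the transition, read -0.013 and -0.18 in SPI, against 0.013 and 0.038 in CAS. Its difference of -0.12 (95% interval -0.35 to 0.11, limma adjusted p = 0.541) turned to 0.036 with arrays centred on the hybridization controls. Snai2, the Snail family member of the basal layer, lay in the level class of 8 to 16 by both of its probe sets. Probe set 1418673_at read 0.029 and 0.18 in SPI, against -0.084 and -0.029 in CAS (difference 0.16, limma adjusted p = 0.411). Probe set 1447643_x_at, of a kind whose probes can bind related transcripts, read 0.092 and 0.16 in SPI, against -0.092 and -0.11 in CAS (difference 0.22, limma adjusted p = 0.228). Both probe sets had the SPI arrays above the CAS arrays, and neither passed. The intervals of these differences reach 0.38 and 0.41 at their upper ends.

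The Twist genes, whose proteins are close relatives, differed in opposite directions. Twist1 read 0.34 and 0.18 in SPI, against -0.22 and -0.18 in CAS, on a probe set in the level class of 8 to 16. It was 1.37-fold higher in SPI (95% interval 1.17 to 1.61), which missed the threshold among probe sets (limma adjusted p = 0.0985) and passed among genes (limma adjusted p = 0.0457). Twist1 was the 1 member that passed with a rise, and in the probe set fit it also did so among probe sets at level 4 or above (limma adjusted p = 0.0482) or after centring on the hybridization controls (limma adjusted p = 0.0198). Its gene value is that of its 1 probe set, so the gene call is not separate support. That call was lost with the replicate number as a block (limma adjusted p = 0.0978) and in the fit of the highest level class. Twist2 read -0.52 and -0.20 in SPI, against 0.28 and 0.20 in CAS. At 1.52-fold lower (1.22 to 1.90), Twist2 did not pass among probe sets (limma adjusted p = 0.112) or genes (limma adjusted p = 0.0597). It did pass among genes at level 4 or above (limma adjusted p = 0.0404). Among genes with arrays centred on the hybridization controls it passed as well (limma adjusted p = 0.0486). There its log2 difference was smaller, at -0.45 against -0.60, while 2483 genes passed against 727 as deposited. Within each array, Twist1 minus Twist2 was 0.86 and 0.38 in SPI, against -0.50 and -0.38 in CAS. Likewise Snai2 1418673_at minus Zeb2 1422748_at was 0.67 and 1.29 in SPI, against -0.73 and -0.72 in CAS, and Snai2 1418673_at minus Zeb1 1418926_at was 0.36 and 0.60 in SPI, against -0.42 and -0.55 in CAS. In all 3 pairs both SPI arrays lay above both CAS arrays. That had to follow, since the first of each pair was higher and the second lower in SPI without overlap. Values are centred per probe set, so the sign of a difference does not show which gene had more transcript. The pairs were chosen with their values known, so they are given without a test.

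Tcf4, which encodes the E-protein E2-2, had 5 of its 6 probe sets lower and 1 higher in SPI with no overlap of the diets. Of all probe sets 20.5% were lower and 27.9% higher without overlap. In limma 0 of the 6 passed, and 2 had an unadjusted p under 0.05, as had 8006 of all 45037 probe sets. The differences of Tcf4 were small, from -0.23 for 1416724_x_at to 0.18 for 1416725_at. Probe set 1424089_a_at, for example, read -0.067 and -0.10 in SPI, against 0.067 and 0.20 in CAS (limma adjusted p = 0.274). The higher one, 1416725_at, read 0.088 and 0.069 in SPI, against -0.069 and -0.14 in CAS. With arrays centred on the hybridization controls 2 of the 5 lower probe sets turned positive (0.038 for 1416723_at and 0.035 for 1434149_at), as did the mean of the gene (0.043). Tcf4 at -0.11 as a gene mean (limma adjusted p = 0.374) thus has no direction that holds under both scalings.

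Prrx1, a homeobox factor of mesenchyme, did not separate the diets in 5 of its 6 probe sets, where 48.4% of all probe sets did. Those 5 had log2 differences between -0.15 and 0.045. The sixth, 1439774_at, read -0.41 and -0.15 in SPI, against 0.20 and 0.15 in CAS, a difference of -0.46 that did not pass (limma adjusted p = 0.142). Foxc2, a forkhead factor, read -0.034 and 0.057 in SPI, against -0.094 and 0.034 in CAS, and the diets overlapped (difference 0.042, 95% interval -0.18 to 0.26). Its probe set lay in the low level class of 2 to 4.

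Esrp2, which holds the epithelial splicing programme in place, was lower in SPI by both of its probe sets. Probe set 1433683_at read -0.20 and -0.26 in SPI, against 0.33 and 0.20 in CAS. Its log2 difference of -0.49 missed the threshold (limma adjusted p = 0.0732), and passed among probe sets at level 4 or above (limma adjusted p = 0.0339). Probe set 1419977_s_at, of a kind shared between transcripts, read -0.28 and -0.14 in SPI, against 0.14 and 0.18 in CAS (difference -0.37, limma adjusted p = 0.134). Both SPI arrays lay below both CAS arrays in either probe set. As the mean of both, Esrp2 was 1.35-fold lower (95% interval 1.20 to 1.51, limma adjusted p = 0.0297 over 18193 genes), a call that was lost with arrays centred on the hybridization controls (-0.28, limma adjusted p = 0.0859). Its paralogue Esrp1 was at -0.12 and did not pass (limma adjusted p = 0.496).

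Counted once per gene, 2 of the 10 members fell (Zeb2 and Esrp2), 1 rose (Twist1) and 7 did not pass, where 3.09% of all genes fell and 0.901% rose in the same limma fit. Taking each gene's probe sets of the highest level class instead put Zeb2 (limma adjusted p = 0.0518) and Twist1 (0.055) just above the threshold of 0.05, uncalled, and kept Esrp2 (0.0375). The 2 that fell stand on opposite sides of the transition, Zeb2 as a repressor of epithelial genes and Esrp2 as an epithelial gene. The diets did not overlap in 9 of the 10 members, as in 51.5% of all genes. Both SPI arrays were the lower ones in 7 members (21.4% of all genes) and the higher ones in 2 (30.1%). The median difference of the 10 was -0.12, against 0.025 over all genes. Without any single array none of the 10 genes passed (limma adjusted p 0.0763 to 0.169 for Zeb2, 0.175 to 0.191 for Esrp2 and 0.144 to 0.229 for Twist1).

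Markers of other cells moved on the same arrays, where 3.09% of all genes fell and 0.901% rose. Of 16 fibroblast markers 13 fell, with a list median of -0.57 and -0.54 in the SPI arrays, against 0.60 and 0.56 in the CAS arrays. Of 12 endothelial and pericyte markers 5 fell (medians -0.20 and -0.40 in SPI, against 0.35 and 0.26 in CAS), of 13 luminal markers 5 fell (-0.11 and -0.13 in SPI, against 0.18 and 0.16 in CAS), and of 5 mast cell markers 3 fell (-0.55 and -0.81 in SPI, against 0.56 and 0.56 in CAS). Of 16 basal and myoepithelial markers 2 rose, Krt15 and Oxtr (0.018 and 0.027 in SPI, against -0.047 and -0.013 in CAS). Among 10 macrophage and leukocyte markers 0 passed in limma, with 5 at an unadjusted p under 0.05 (0.078 and 0.11 in SPI, against -0.14 and 0.013 in CAS). Of all 18193 genes 3775 had an unadjusted limma p under 0.05. Of 6 adipocyte markers 1 rose and 1 fell, and of 3 Schwann cell and nerve markers 0 passed, with 1 at an unadjusted p under 0.05. The part of these cells in the differences of Zeb1, Zeb2, Twist1, Twist2 and Esrp2 was not tested. In such bulk samples fewer cells of a type and less RNA per cell cannot be told apart.

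Among 10 other transition factors measured, 1 fell and 9 did not pass, where 3.09% of all genes fell. The one was Foxc1, a forkhead relative of Foxc2, which read -0.22 and -0.31 in SPI, against 0.32 and 0.22 in CAS (difference -0.53, limma adjusted p = 0.0248). Prrx2, the paralogue of Prrx1, had a larger difference of -0.65 with wider spread, at -0.19 and -0.50 in SPI against 0.42 and 0.19 in CAS, and did not pass (limma adjusted p = 0.0672). Foxc1 and Prrx2 thus stood lower than their relatives Foxc2 (0.042) and Prrx1 (-0.11), differences that were not tested. With arrays centred on the hybridization controls Prrx2 (-0.49, limma adjusted p = 0.0362) passed as well, and Lef1, a factor of Wnt signalling, was called higher (0.42, limma adjusted p = 0.0287).

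None of the measured partners and regulators of these proteins passed in limma, where 727 of all 18193 genes did. An unadjusted p under 0.05 was reached by 3775 of those 18193 genes, against which the counts below stand. Of 8 E-protein partners and Id inhibitors, which hold E-proteins away from DNA, 0 passed in limma and 2 had an unadjusted p under 0.05, Id3 (-0.26) and Id2 (0.24). Of 18 corepressors and genes of Snail turnover 0 passed and 3 had an unadjusted p under 0.05. The closest were Prkd1, a kinase that phosphorylates Snail (0.37, limma adjusted p = 0.0575), and the LIM protein Limd1 (-0.19). Of 12 TGF-beta signalling genes, whose pathway induces the transition, 0 passed and 2 had an unadjusted p under 0.05, the receptor Tgfbr1 (-0.44, limma adjusted p = 0.12) and the decoy receptor Bambi (0.19). With arrays centred on the hybridization controls 1 gene of each list was called higher in SPI, Id2 (0.39, limma adjusted p = 0.0367), Prkd1 (0.53, limma adjusted p = 0.0144) and Bambi (0.34, limma adjusted p = 0.0428).

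Targets on each side of the transition included genes that fell in SPI. Of 20 mesenchymal target genes 14 fell and 6 did not pass, where 3.09% of all genes fell. The median difference of the list was -0.75. The matrix-degrading enzyme Mmp3 differed by -1.93, the collagens Col3a1, Col1a1 and Col5a2 by -1.71, -1.70 and -0.90, the mesenchymal cadherin Cdh11 by -1.44 and the receptor Pdgfrb by -1.13 (limma adjusted p 0.00118 to 0.00443). Vim (0.16) and Cdh2 (-0.14), named here as standard markers and not by rule, did not pass. This list shares 7 genes with the fibroblast markers.

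Of 23 epithelial target genes 11 fell and 12 did not pass, where 3.09% of all genes fell. The median difference of the list was -0.43. The tight junction genes Cldn7, Marveld2 and Cldn3 differed by -1.19, -0.88 and -0.82, the keratins Krt19 and Krt18 by -0.89 and -0.73 and the trafficking GTPase Rab25 by -0.78 (limma adjusted p 0.00796 to 0.0256). Rab25, whose promoter is printed above, read -0.36 and -0.37 in SPI, against 0.48 and 0.36 in CAS. E-cadherin itself, Cdh1, named as the best-known target, read -0.085 and -0.025 in SPI, against 0.062 and 0.025 in CAS, and did not pass (-0.099, limma adjusted p = 0.454). The list shares 4 genes with the luminal markers. Of 12 epithelial transcription factors that oppose the transition, 2 fell and 10 did not pass. The 2 were the ETS factors Ehf (-0.69, limma adjusted p = 0.0158) and Elf3 (-0.49, limma adjusted p = 0.0242). The call of Elf3 was lost with arrays centred on the hybridization controls. No gene of these 3 lists rose in the limma fit of the values as deposited. With arrays centred on the hybridization controls 1 did, the mesenchymal target Mmp9, a matrix-degrading enzyme (0.45, limma adjusted p = 0.0249), against 0.29 and an adjusted p of 0.193 as deposited. Mmp9 was named after its values were seen. As deposited, the numbers with an unadjusted p under 0.05 in either direction were 16, 19 and 5 for mesenchymal targets, epithelial targets and epithelial factors. Among all 18193 genes that number was 3775.

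**Figure D3:**
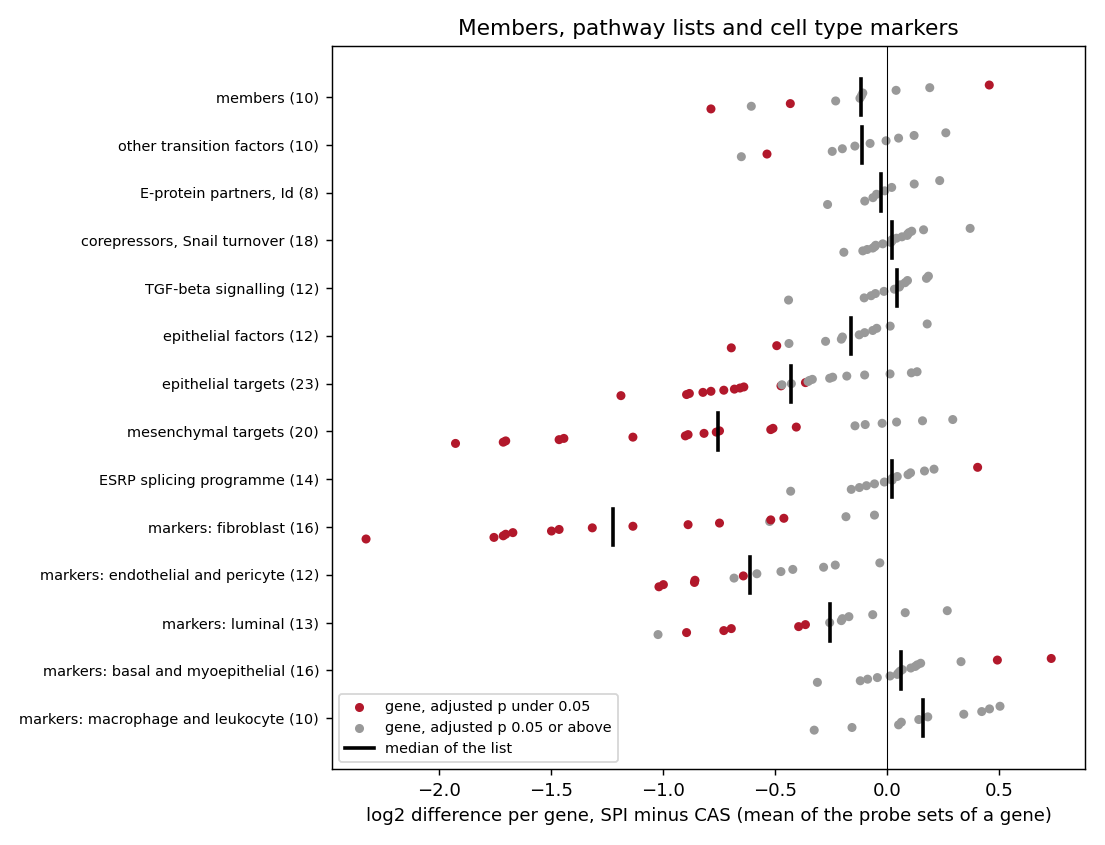
Log2 difference per gene (SPI minus CAS) for the members, 8 pathway lists and 5 marker lists, with the number of genes measured in brackets, red where the adjusted p over all genes is under 0.05, and a black line at each list's median. The mesenchymal targets (median -0.75), the epithelial targets (-0.43) and the fibroblast markers (-1.22) lie to the left, and the corepressors (0.023) near 0.

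Of 14 genes of the ESRP splicing programme 1 rose, where 0.901% of all genes did. It was Fgfr2, whose exon choice the ESRP proteins set. It read 0.17 and 0.27 in SPI, against -0.15 and -0.22 in CAS (1.32-fold higher, limma adjusted p = 0.0466), and missed the threshold with arrays centred on their medians. Enah, an actin regulator with an ESRP-controlled exon, was lower (-0.43) and did not pass (limma adjusted p = 0.0648). These arrays measure the transcripts of the genes and not their splice forms.

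The ZEB and Snail hexamer was also counted in the promoters of the targets. It was present in 9 of the 17 epithelial targets with a promoter in the table (52.9%), in 1 of 11 mesenchymal targets (9.09%) and in 17.1% of all genes. Rab25 has it at positions -64 and -53, Krt18 at -214, and Crb3, a polarity gene printed for its 3 hexamers, at -118, -63 and -7. The epithelial targets were listed as known targets of these repressors, so that share describes the list. The wider pattern CANNTG was present in 70.6% of the same 17 promoters, against 66.1% of all genes. A GC box (GGGCGG or CCGCCC), another promoter sequence, was present in 70.6%, against 33.0%. The GC box was thus also above its share in all genes. Of the 9 with the hexamer 5 fell in SPI, with a median difference of -0.36. Of the 8 without it 5 fell, with a median of -0.58. A match of letters does not show that a protein binds there.

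**Figure D4:**
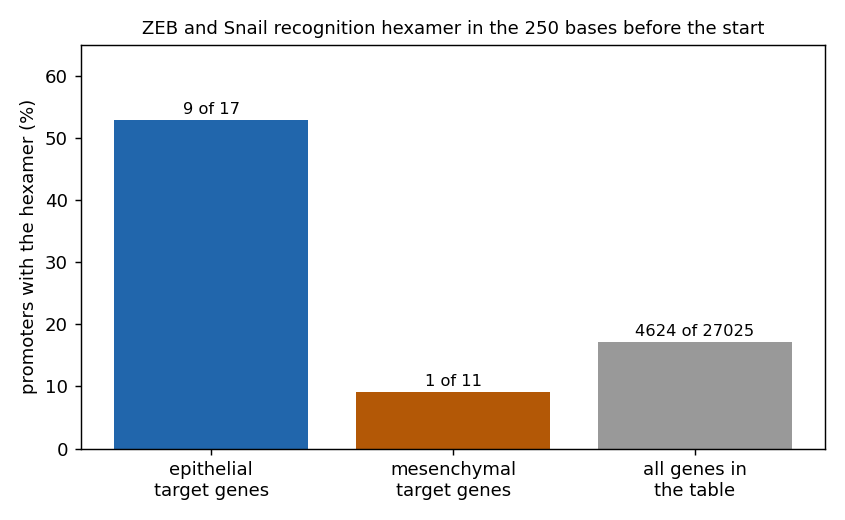
Share of promoters (%, bars from 0) that hold the hexamer on either strand within the 250 bases before the start, for the epithelial targets, the mesenchymal targets and all genes of the promoter table, with counts above the bars. It was present in 9 of 17, 1 of 11 and 4624 of 27025 promoters.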

How the data were processed

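RNA from 4 samples was hybridised to Affymetrix arrays after biotin labelling, per the labels' protocols. Per the submitters' processing notes the tools were GCOS and RMA, without versions. A genome build is not given in the sources used here. Values deposited by the authors were read as log2 expression, the base being that of RMA. Each probe set's median over its 4 arrays was at most 5e-07 from 0, so a further centring step took place that the labels do not mention. The number of arrays limits the precision.

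Of 45101 probe sets, 64 were controls. Of the other 45037, 34945 had 1 gene in the platform annotation, 932 several and 9160 none, and symbols were updated through gene IDs. Probe sets were fitted in limma 3.58.1 (R 4.3.3, lmFit and eBayes without a trend, two-sided), with 2 residual and 3.11 prior degrees of freedom, and so were the means of all probe sets of each of 18193 genes. Intervals are 95% limma intervals. The level class was read from the step size of the printed values, which in single precision doubles with each doubling of the level. It is that of the array with the finest step, which is the lowest array. The class and the filter at level 4 can therefore depend on the diet. The probe set fit was tested on simulated data with 200 of 45037 probe sets changed. Noise was normal and independent between probe sets, with variances drawn from the fitted limma prior. It recovered 0.299% of changes of 0.585 on the log2 scale, 51.3% of changes of 1 and 94.5% of changes of 2. Of its calls 5.09% were false. A small difference that did not pass is therefore not shown to be absent.

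Of each pathway list, genes past the threshold and the 2 with the smallest p were named, at most 6 per list. Members, lists and tests were chosen with earlier results of these data known. Alternatives were a replicate block, each array left out, other scalings of the arrays, a filter at level 4, an ordinary t statistic, thresholds of 0.01 and 0.1, and another mean of probe sets.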

Additional observations from a re-analysis of the deposited data

How the results depend on the processing

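Limma calls rest on few arrays. With each array left out in turn, all probe sets gave 0 to 0 calls, member probe sets and member genes 0 to 0, all genes 0 to 164, mesenchymal targets 0 to 6, epithelial targets 0 to 3, and other transition factors, epithelial factors and ESRP genes 0 to 0. The lone array was taken to vary like the other diet. The replicate number was shared by the diets without a stated pairing, and the differences between replicates 1 and 2 correlated between diets at -0.099. With it as a block 79 probe sets and 432 genes passed (676 and 727 without), 0 member probe sets, 1 member gene (Zeb2, adjusted p = 0.0485), 2 other transition factors, 1 epithelial factor, 6 epithelial targets and 0 ESRP genes. An ordinary t statistic passed 1 probe set and 0 genes, with 6084 and 2841 at an unadjusted p under 0.05, and so 0 members and 0 genes of any list. At a threshold of 0.01, 114 probe sets, 204 genes, 0 members, 1 epithelial target, 9 mesenchymal targets and 0 other transition factors, epithelial factors or ESRP genes passed. At 0.1, 1579 probe sets, 1471 genes, 6 member probe sets, 2 other transition factors, 1 corepressor and 2 ESRP genes did. At level 4 or above, fewer probe sets being tested, 1355 probe sets, 1167 genes, 5 member genes, 3 other transition factors, 1 corepressor gene and 2 ESRP genes passed. With arrays centred on their medians 0 ESRP genes passed. Centred on the hybridization controls, 2261 probe sets (704 lower and 1557 higher, against 564 and 112) and 2483 genes (512 lower and 1971 higher, against 563 and 164) passed, with 5 member probe sets (4 lower and 1 higher), 3 other transition factors (2 lower, and Lef1 higher), 1 epithelial factor lower, 14 mesenchymal targets (13 lower, and Mmp9 higher), and 1 each of E-protein partners, corepressors and TGF-beta genes, all 3 higher. Which scaling is nearer the truth was not tested.

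With that centring these differences changed sign: Zeb1 1443005_at (0.11), Snai1 (0.036), Prrx1 1425526_a_at (0.0014), 1425527_at (0.14), 1432129_a_at (0.14) and 1458004_at (0.11), Tcf4 1416723_at (0.038) and 1434149_at (0.035), and the gene means of Prrx1 (0.048) and Tcf4 (0.043). Leaving out arrays turned Foxc2 (-0.023 to 0.11), Zeb2 1458941_at (-0.060 to 0.17) and Prrx1 1425526_a_at (-0.32 to 0.011), 1425527_at (-0.11 to 0.072), 1425528_at (-0.0091 to 0.0996), 1432129_a_at (-0.18 to 0.14) and 1458004_at (-0.15 to 0.066). None of these had passed. In place of the mean of all probe sets, the highest level class gave -0.044 for Zeb1 and -0.75 for Zeb2 (adjusted p = 0.0518), and an adjusted p of 0.055 for Twist1. The causes were not tested.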

Other observations

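The host transcript of miR-205, a microRNA of basal epithelium known to repress Zeb1 and Zeb2, was measured by 1 probe set of Mir205hg. It read 0.27 and 0.094 in the SPI arrays, against -0.12 and -0.094 in the CAS arrays. The SPI arrays lay above the CAS arrays, and the log2 difference of 0.29 (95% interval 0.058 to 0.52) did not pass among all probe sets (limma adjusted p = 0.208). The gene was chosen after its value was seen, and the mature microRNA was not measured here.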
